A study of Mus musculus with 8 samples.

Results

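The ovarian surface epithelium is followed here through 8 genes, *Upk3b*, *Upk1b*, *Krt7*, *Krt8*, *Krt18*, *Krt19*, *Msln* and *Lhx9*, which were taken by symbol from the 45583 gene symbols of the deposited count table. The study sequenced RNA from whole ovaries of 3-week-old (juvenile) C57/Bl6 mice, 4 labelled WT and 4 labelled GOAT KO, with 1 ovary and 1 library per animal, so that n = 4 in each group unless libraries are said to be left out. GOAT is ghrelin-O-acyltransferase, which adds an acyl group to the gut peptide ghrelin, and *Mboat4* is its gene. GOAT KO and WT animals were littermates from crosses of heterozygotes, and no tissue-specific deletion is described. The comparison asks whether RNA of the surface epithelium differed between ovaries with and without the enzyme. In RNA from a whole organ, fewer cells of a type and less RNA per cell cannot be told apart.

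The surface epithelium is the single sheet of cells that covers the ovary, and it is continuous with the mesothelium that lines the body cavity. It divides to repair the surface after each ovulation. Like other simple epithelia it builds its intermediate filaments from pairs of a type II keratin, such as KRT7 or KRT8, with a type I keratin, such as KRT18 or KRT19. *Upk3b* and *Upk1b* encode uroplakins, membrane plaque proteins of the bladder lining that mesothelium and ovarian surface cells also make, and *Msln* encodes mesothelin, a glycoprotein anchored in the membrane of mesothelial cells. *Lhx9* encodes a LIM homeodomain transcription factor that the gonad needs in order to form. Of these, the keratins are made by other epithelia as well, and *Lhx9* is also made by cells beneath the surface.

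The counts on genes summed to between 16147216 and 19481798 per library. *Mboat4* had 1, 1, 1 and 3 counts in the libraries labelled WT and 5, 7, 7 and 8 in those labelled GOAT KO. This order goes against the labels, but all of these counts lie below the minimum of 10 in the filter on low counts. Whether the reads lie in the deleted part of the gene was not tested, so these counts do not settle the labels. Every direction below therefore refers to libraries as labelled. In multidimensional scaling on 500 genes per pair of libraries, GOAT KO 1139 stood apart, at 1.21 on the first dimension against -0.47 to 0.17 for the others. On the second dimension WT 1118 was the farthest of the WT libraries, at 0.76, and WT 1120 was at -0.43, with 0.11 and 0.13 for the other WT libraries. The chi-square per gene against the nearest library of the same group was 16.5 for WT 1120 and 3.96 to 8.85 for the other WT libraries, and 11 for GOAT KO 1139 and 4.51 to 5.28 for the others labelled GOAT KO. A list of 8 fat cell genes summed to 1236.8 CPM (TMM-normalized counts scaled to library size) in GOAT KO 1139, to 29.2 to 64.5 in the other libraries labelled GOAT KO and to 25.4 to 57.3 in those labelled WT. Of these, *Adipoq*, which encodes the fat cell hormone adiponectin, stood at 96.7 CPM there and at 0.291 to 2.99 CPM elsewhere, and *Lep* had no count in WT 1120 and GOAT KO 1146. The study left 1 library of each group out of its own analysis without naming it. Results are therefore given for all 8 libraries and, beside them, for the 6 without WT 1120 and GOAT KO 1139, the pair that an earlier analysis of these data took to be the omitted one.

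All 8 genes were detected in every library, with 145 to 1068 counts each, and all 8 passed the filter on low counts. Their positions are those of the mouse genome build GRCm38. *Krt7* (chr15:101411043-101430313, + strand), *Krt8* (chr15:101996698-102004482, − strand) and *Krt18* (chr15:102028180-102032027, + strand) lie on chromosome 15, where 566384 bases separate *Krt7* from *Krt8* and 23697 bases separate *Krt8* from *Krt18*, its filament partner. *Krt19* (chr11:100140810-100148665, − strand) lies among the other type I keratins on chromosome 11. The remaining 4 are spread over the genome: *Upk3b* (chr5:136038496-136046487, + strand), *Upk1b* (chr16:38773184-38800328, − strand), *Msln* (chr17:25748613-25754378, − strand) and *Lhx9* (chr1:138825186-138848577, − strand).

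RefSeq gave a promoter for 5 of the 8 genes (build GRCm38.p6), taken as the 250 bases before the transcription start. These sequences are shown because they precede an annotated start of the abundant uroplakin, the keratin pair, the transcription factor and the gene with the smallest p. Which start was used in these ovaries was not tested. For *Krt7* and *Lhx9* the printed stretch lies within the annotated span of the gene. For each, only the bases that lie outside all annotated exons of the gene are printed, 5′ to 3′ on the gene's own strand, and capitals mark a match to one of the motifs searched:
Upk3b: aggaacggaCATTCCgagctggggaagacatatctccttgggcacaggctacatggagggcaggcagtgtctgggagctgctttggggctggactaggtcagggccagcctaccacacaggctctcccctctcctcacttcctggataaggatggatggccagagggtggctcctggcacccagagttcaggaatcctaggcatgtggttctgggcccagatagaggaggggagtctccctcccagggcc
Krt7: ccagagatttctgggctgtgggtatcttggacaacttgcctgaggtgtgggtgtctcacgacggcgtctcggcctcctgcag
Krt8: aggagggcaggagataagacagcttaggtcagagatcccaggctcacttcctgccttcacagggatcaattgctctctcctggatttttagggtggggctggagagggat
Krt18: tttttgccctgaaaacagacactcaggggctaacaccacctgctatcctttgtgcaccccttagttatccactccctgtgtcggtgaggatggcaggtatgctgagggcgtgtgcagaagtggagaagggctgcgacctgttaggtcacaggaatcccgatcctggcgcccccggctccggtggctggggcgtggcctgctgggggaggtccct
Lhx9: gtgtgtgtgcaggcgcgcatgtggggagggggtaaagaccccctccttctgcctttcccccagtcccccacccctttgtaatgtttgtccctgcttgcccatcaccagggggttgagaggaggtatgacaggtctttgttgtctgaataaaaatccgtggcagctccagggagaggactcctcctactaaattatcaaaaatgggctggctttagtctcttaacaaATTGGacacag

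The printed stretches lie at chr5:136038246-136038495 (*Upk3b*), chr15:101412153-101412234 (*Krt7*), chr15:102004483-102004592 (*Krt8*), chr15:102027966-102028179 (*Krt18*) and chr1:138842458-138842694 (*Lhx9*). Over the full 250 bases, G and C made up 66.0% in *Krt7*, 60.8% in *Upk3b*, 60.4% in *Krt18*, 58.0% in *Krt8* and 53.6% in *Lhx9*, against a median of 52.4% over 32841 RefSeq promoters of the same length. Motifs of 5 kinds were searched on both strands, and none overlaps another in these 5 promoters. The GC box GGGCGG, which 32.7% of all promoters hold, was found 4 times in *Krt7*, between 141 and 24 bases before the start and within an exon of another transcript of the gene, so those letters are not printed. The motif CATTCC of the TEAD factors, held by 12.6% of promoters, was found once in *Upk3b*, 241 bases before the start. The CCAAT box, held by 33.9%, was found once in *Lhx9* on the reverse strand, 24 bases before the start. The TATA box TATAAA (12.4% of promoters) and the homeodomain motif TAATTA (4.84%) were found in none of the 5, and neither *Krt8* nor *Krt18* held any of the motifs. A match describes these letters only and says nothing of a factor's binding.

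Per kilobase of the principal transcript, *Upk3b* was the most abundant of the 8 genes, at a level of 15.3 ± 1.75 CPM per kb (SD over the 8 libraries). It was followed by *Krt8* at 14.2 ± 2.05, *Krt19* at 13.6 ± 1.60, *Krt18* at 13.5 ± 1.05 and *Msln* at 10.3 ± 1.57 CPM per kb. *Upk1b*, at 7.04 ± 0.861, *Lhx9*, at 3.15 ± 0.692, and *Krt7*, at 2.45 ± 0.450 CPM per kb, were lowest. Compared within each library, *Krt18* stood above *Msln*, *Msln* above *Upk1b* and *Upk1b* above *Lhx9* in 8 of 8 libraries. The order did not hold throughout among the first 4 genes, where *Upk3b* stood above *Krt8* in 6 of 8 libraries, *Krt8* above *Krt19* in 3 and *Krt19* above *Krt18* in 5, nor between the last pair, where *Lhx9* stood above *Krt7* in 6. The annotation gives several transcripts for some of the genes, and with the length of all their exons joined, *Lhx9* came to 1.64 and *Krt7* to 1.42 CPM per kb. The keratin partners *Krt8* and *Krt18* were close to equal per length, with a ratio of 0.848 to 1.38 over the 8 libraries, lowest in WT 1121 and highest in WT 1120.

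With all 8 libraries, 0 of the 8 genes were called by the rule of the study, a p under 0.05 before adjustment together with a log2 fold change beyond 0.5 in either direction, which called 278 of the 16601 genes tested (1.67%). At an unadjusted p under 0.05 alone, edgeR's quasi-likelihood test counted 1 of the 8, *Krt7*, against 4.62% of all genes, and DESeq2 counted 1 and called 0. None reached an adjusted p under 0.05 by the method of Benjamini and Hochberg over the whole table, which 4 genes did (0.0241%), and the smallest adjusted p among the 8 was 0.983. Fold changes were below 0 for 5 genes and above 0 for 3, with a median log2 fold change of -0.07 against -0.00035 over all genes tested. In none of the 8 did the groups separate, while they separated in 2.92% of all genes.

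**Figure D1:**
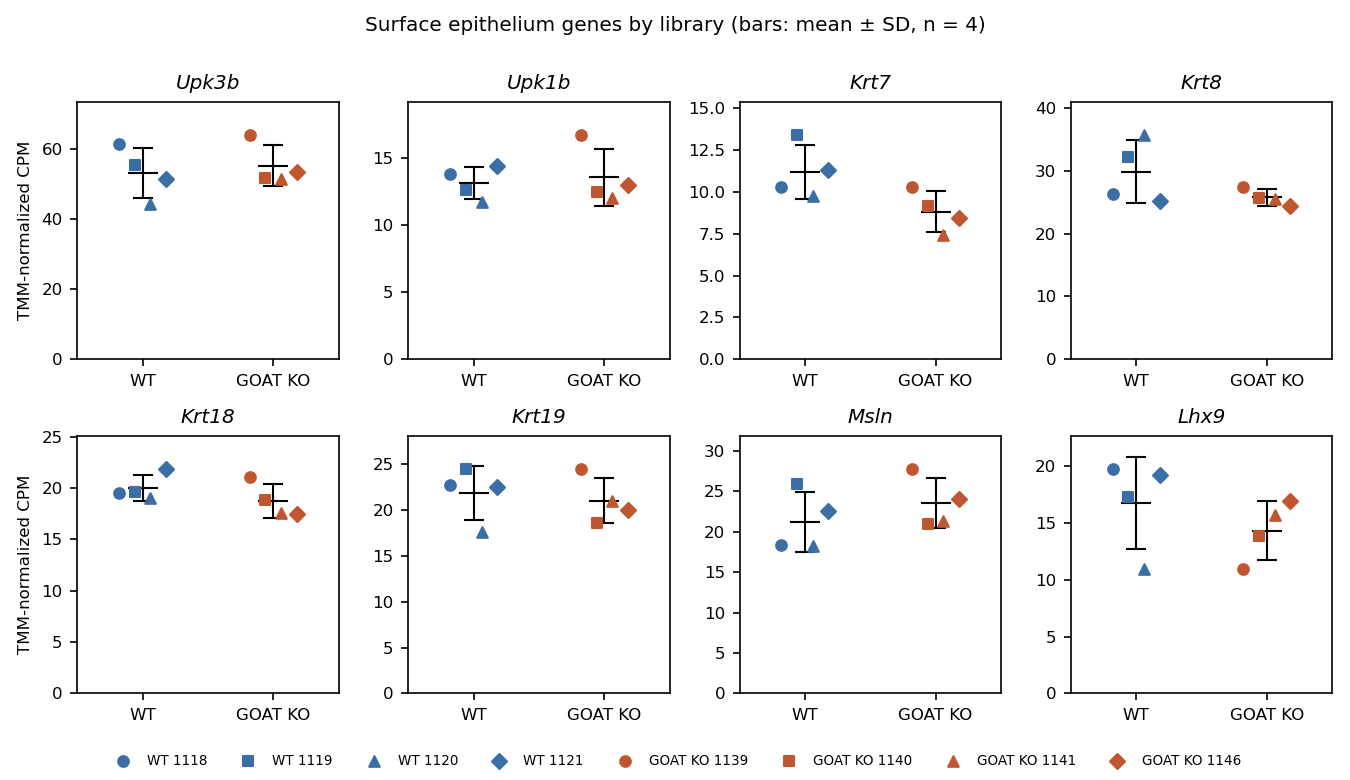
Level of each gene (TMM-normalized CPM, vertical axes from 0) in the 4 libraries labelled WT and the 4 labelled GOAT KO, with 1 marker per library and the mean ± SD of each group as bars. The groups overlap for every gene, and GOAT KO 1139 has the highest *Upk3b* (63.9 CPM), *Upk1b* (16.7 CPM) and *Msln* (27.7 CPM) of all 8 libraries.

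The uroplakins and mesothelin, the genes of the mesothelial membrane, did not differ between the groups beyond the spread of the libraries. *Upk3b* stood at 61.5, 55.4, 44.4 and 51.4 CPM in WT 1118, 1119, 1120 and 1121, and at 63.9, 51.8, 51.5 and 53.5 CPM in GOAT KO 1139, 1140, 1141 and 1146 (the same order of libraries is kept below). GOAT KO 1139 was highest and WT 1120 lowest, and the other 3 libraries labelled GOAT KO lay within the range of WT. The means were 53.2 ± 7.18 and 55.2 ± 5.89 CPM (SD), a log2 fold change of 0.05 (SE 0.11, 95% interval -0.18 to 0.29, exact permutation p = 0.714). *Upk1b*, the tetraspanin that pairs with other uroplakins in the plaque, stood at 13.8, 12.6, 11.7 and 14.4 CPM in WT and at 16.7, 12.5, 12.0 and 13 CPM in GOAT KO. Its order was again headed by GOAT KO 1139 and closed by WT 1120, and its log2 fold change was 0.04 (SE 0.12, 95% interval -0.23 to 0.31, exact permutation p = 0.8).

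*Msln* stood at 18.3, 25.9, 18.2 and 22.6 CPM in WT and at 27.7, 21, 21.3 and 24.1 CPM in GOAT KO. WT 1118 and WT 1120 were lowest and GOAT KO 1139 was highest, with the remaining libraries of both groups intermixed. Its means were 21.2 ± 3.73 and 23.5 ± 3.11 CPM, and the log2 fold change was 0.15 (SE 0.13, 95% interval -0.14 to 0.44, exact permutation p = 0.371). With any one library left out it ran from 0.058 without GOAT KO 1139 to 0.25 without WT 1119. All 3 genes were thus highest in the library that also held the fat cell genes, and the part of that tissue in these levels was not tested. Without WT 1120 and GOAT KO 1139 the log2 fold changes turned to -0.10 for *Upk3b* (adjusted p = 0.685), -0.13 for *Upk1b* (adjusted p = 0.709) and -0.01 for *Msln* (adjusted p = 0.985, all by edgeR). The intervals in those 6 libraries, -0.27 to 0.07, -0.36 to 0.10 and -0.28 to 0.26, all included 0.

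*Krt7* was the keratin with the largest difference. It stood at 10.3, 13.4, 9.77 and 11.3 CPM in WT and at 10.3, 9.17, 7.42 and 8.43 CPM in GOAT KO. GOAT KO 1139 lay inside the range of WT, above WT 1120, and the other 3 libraries labelled GOAT KO lay below every WT library. The means were 11.2 ± 1.62 and 8.83 ± 1.21 CPM, a fold of 0.785 (95% interval 0.638 to 0.965) or a log2 fold change of -0.35 (SE 0.14). edgeR gave an unadjusted p of 0.0256 and an adjusted p of 0.983, DESeq2 gave an unadjusted p of 0.0197, and an exact permutation of the 8 libraries gave p = 0.0571. *Krt7* passed the looser rule that the study set for its pathway analysis, an absolute log2 fold change over 0.3, which 1.27% of all genes passed in the lower direction. Its unadjusted p in edgeR did not stay under 0.05 when WT 1119 (log2 fold change -0.25, unadjusted p of 0.0873), GOAT KO 1141 (-0.28, unadjusted p of 0.0758) or GOAT KO 1146 (-0.33, unadjusted p of 0.0586) was left out.

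The other type II keratin, *Krt8*, stood at 26.4, 32.3, 35.7 and 25.2 CPM in WT and at 27.5, 25.7, 25.5 and 24.4 CPM in GOAT KO. WT 1119 and WT 1120 were above all others, while the 2 remaining WT libraries lay among those labelled GOAT KO. The spread was wider in WT (29.9 ± 4.96 CPM) than in GOAT KO (25.8 ± 1.29 CPM), a difference in spread that was not tested. Its log2 fold change was -0.21 (SE 0.11, 95% interval -0.46 to 0.03, exact permutation p = 0.229). With any one library left out it ran from -0.29 without WT 1121 (unadjusted p of 0.0192 by edgeR) to -0.12 without WT 1120 (unadjusted p of 0.22), and the other value with an unadjusted p under 0.05 was -0.27 without WT 1118 (unadjusted p of 0.0375).

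The type I keratins overlapped between the groups with all 8 libraries. *Krt18* stood at 19.5, 19.6, 19.0 and 21.8 CPM in WT and at 21.1, 18.8, 17.6 and 17.5 CPM in GOAT KO. Only GOAT KO 1139 lay inside the range of WT, and the log2 fold change was -0.09 (SE 0.09, 95% interval -0.28 to 0.10, exact permutation p = 0.314). *Krt19*, the smallest keratin and a partner of KRT7 and KRT8, stood at 22.7, 24.4, 17.6 and 22.5 CPM in WT and at 24.4, 18.6, 21 and 20 CPM in GOAT KO. WT 1120 was the lowest of all 8, and WT 1119 and GOAT KO 1139 were the highest. The log2 fold change of *Krt19* was -0.05 (SE 0.12, 95% interval -0.31 to 0.20, exact permutation p = 0.686).

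*Lhx9*, the transcription factor, varied most from library to library. It stood at 19.7, 17.3, 10.9 and 19.2 CPM in WT and at 10.9, 13.8, 15.7 and 16.9 CPM in GOAT KO. WT 1120 and GOAT KO 1139 were lowest, at nearly the same level, and the other 3 WT libraries lay above the other 3 labelled GOAT KO. The means were 16.8 ± 4.08 and 14.3 ± 2.58 CPM, a log2 fold change of -0.22 (SE 0.19, 95% interval -0.64 to 0.19, exact permutation p = 0.343). With any one library left out it ran from -0.39 without WT 1120 (unadjusted p of 0.0164 by edgeR) to -0.12 without GOAT KO 1139 (unadjusted p of 0.542), with -0.14 without WT 1118 (unadjusted p of 0.507) and -0.15 without WT 1121 (unadjusted p of 0.477).

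**Figure D2:**
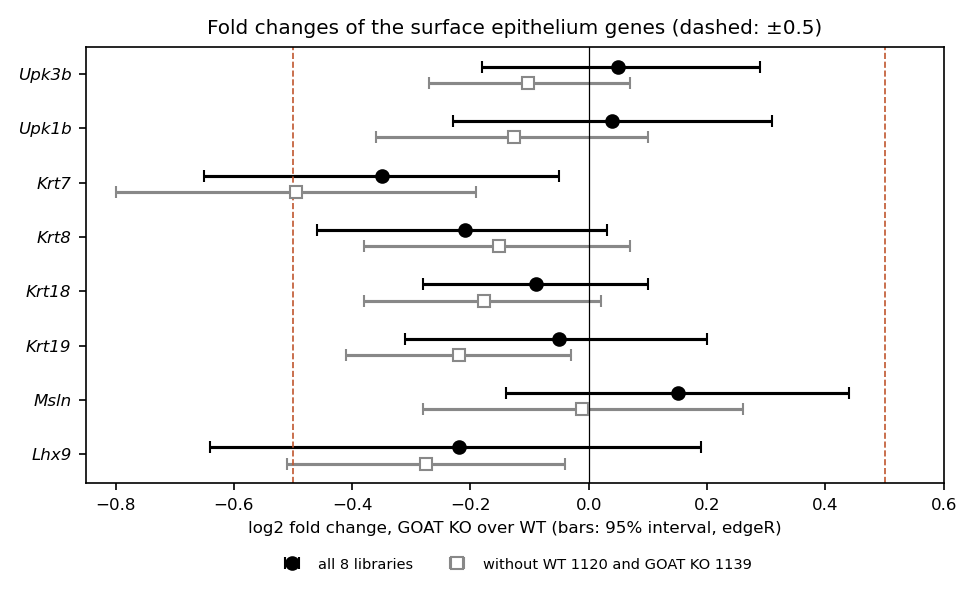
Log2 fold change of each gene (horizontal axis, GOAT KO over WT) with its 95% interval from edgeR, for all 8 libraries (filled circles) and without WT 1120 and GOAT KO 1139 (open squares), with dashed lines at an absolute value of 0.5. With 8 libraries 5 genes lie below 0, and with 6 libraries all 8 do, *Krt7* at -0.495.

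In the 6 libraries without WT 1120 and GOAT KO 1139, the fold changes of all 8 genes were below 0, as were 49.7% of all 16641 genes tested there, and their median log2 fold change was -0.16. By the rule of the study 0 of the 8 were called (2.39% of all genes), since *Krt7*, at -0.495 (SE 0.14, unadjusted p of 0.00434, adjusted p = 0.376 by edgeR), stood just short of the threshold. At an unadjusted p under 0.05 edgeR counted 3 of the 8, all lower in GOAT KO, a direction in which 4.65% of all genes passed. The other 2 were *Lhx9* (-0.28, 95% interval -0.51 to -0.04, unadjusted p of 0.0244, adjusted p = 0.494) and *Krt19* (-0.22, 95% interval -0.41 to -0.03, unadjusted p of 0.0295, adjusted p = 0.501). *Krt18* stood at -0.18 (adjusted p = 0.565) and *Krt8* at -0.15 (adjusted p = 0.64 by edgeR). In these 4 genes, *Krt7*, *Krt18*, *Krt19* and *Lhx9*, every library labelled GOAT KO lay below every WT library, as in 7.55% of all genes. No adjusted p was under 0.05 among the 8, and 0.12% of all genes had one.

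**Figure D3:**
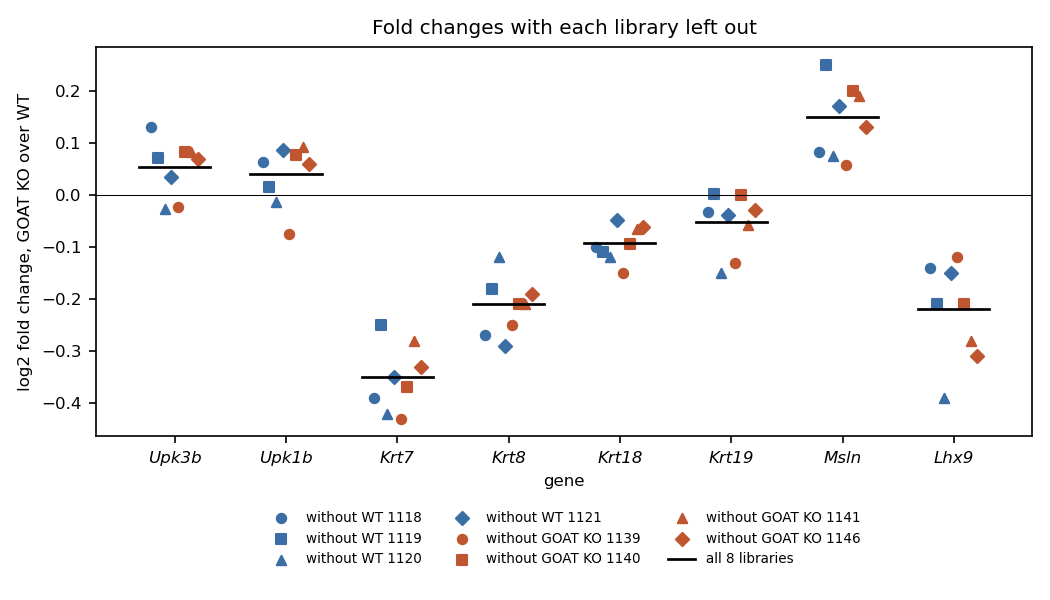
Log2 fold change of each gene (vertical axis, GOAT KO over WT) with each library left out in turn (markers, blue for WT and orange for GOAT KO) and with all 8 libraries (black lines). *Krt7* stays below 0 with any one library left out, between -0.43 and -0.25, while *Upk3b*, *Upk1b* and *Krt19* cross 0.

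Reads across splice junctions gave a second readout of the same libraries. It carried 798 reads over the 8 libraries for *Upk3b*, 287 for *Upk1b*, 342 for *Krt7*, 495 for *Krt8*, 473 for *Krt18*, 569 for *Krt19*, 1028 for *Msln* and 76 for *Lhx9*. *Krt7* had 14.7, 18.6, 14.3 and 18.4 spliced reads per 1000000 junction reads of the library in WT and 14.1, 12.4, 13 and 14.2 in GOAT KO. Every library labelled GOAT KO lay below every WT library, though GOAT KO 1146 and WT 1120 were nearly level, at 14.2 and 14.3. The junctions of *Krt7* were unevenly covered, and some had no read in whole libraries. Intron 6 had 11 reads in WT 1121, 9 in GOAT KO 1141, 14 in GOAT KO 1146 and 0 in the other libraries. Only introns 5, 7 and 8 had reads in all 8 libraries, and on each of them the counts of the groups overlapped. Among 9869 tested genes with at least 76 spliced reads over the 8 libraries, the number *Lhx9* had, 2.9% did not overlap between the groups in this readout. The means were 16.5 ± 2.31 and 13.4 ± 0.863, a log2 ratio of -0.30 (exact permutation test, two-sided, p = 0.0286, which no test of 4 against 4 can go below). This was the smallest p of 8 such tests, given without adjustment. With any 1 WT library left out the log2 ratio was -0.36 to -0.24. It was -0.33 to -0.26 with any 1 library labelled GOAT KO left out. The same exact test gave p = 0.0286 in the first case, 0.114 to 0.143 in the second and 0.1 in the 6 libraries. Groups that do not overlap remain so with any library left out. There 0.0286 is the smallest p possible, and 0.1 is in the 6 libraries. These p therefore do not show how far the difference rests on single libraries.

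For the other genes the same exact permutation test gave p between 0.143 and 0.971. The log2 ratio of spliced reads was 0.06 for *Upk3b*, 0.31 for *Upk1b*, 0.21 for *Msln*, -0.43 for *Krt8*, 0.01 for *Krt18*, -0.18 for *Krt19* and -0.66 for *Lhx9*, the last from only 4 to 20 reads per library. Without WT 1120 the log2 ratio of *Krt8* was -0.16 and without GOAT KO 1146 -0.28, and that of *Lhx9* was -0.30 without WT 1119. That of *Msln* ran from 0.1 without GOAT KO 1139 to 0.29 without GOAT KO 1140. That of *Krt19* ran from -0.31 without GOAT KO 1139 to -0.096 without GOAT KO 1140, and was -0.37 in the 6 libraries. *Upk1b* stood at 11.2, 12.9, 11.1 and 10.2 spliced reads on the same scale in WT and at 15.9, 15, 9.26 and 16 in GOAT KO. GOAT KO 1141 was the lowest of all 8 libraries and the other 3 labelled GOAT KO were the highest. Without GOAT KO 1141 the log2 ratio was 0.47, with the smallest p that the exact permutation test can give there (p = 0.0286). That library was picked from these same values, so this p is no evidence of a difference. With all 8 libraries the exact permutation p was 0.143. The counts of whole genes showed no such order for *Upk1b*, with a log2 fold change of 0.09 without GOAT KO 1141.

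**Figure D4:**
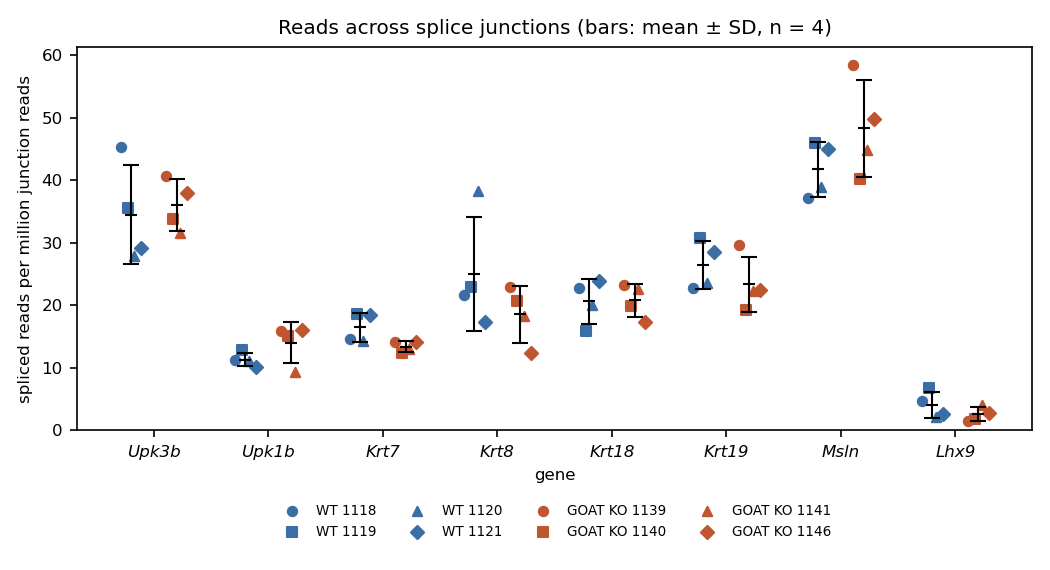
Reads across the splice junctions of each gene, per 1000000 junction reads of the library (vertical axis from 0), with 1 marker per library and the mean ± SD of each group (n = 4) as bars. *Krt7* is the 1 of the 8 genes whose groups do not overlap, narrowly, with 14.3 to 18.6 in WT and 12.4 to 14.2 in GOAT KO, against 2.9% of 9869 genes with spliced reads.

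Some reads of the keratins cannot be assigned with certainty. Of the 1909 stretches of 50 bases in the *Krt8* transcript, 567 (29.7%) also occur in transcripts of other genes, 514 of them in *Krt8-ps*, a processed copy of *Krt8*, which has no entry under that name in the count table. The transcript of *Krt8* has 8 introns, and spliced reads were found on 3 of them, with 23 reads on intron 4, 211 on intron 5 and 261 on intron 6. Introns 1, 2 and 3 had 0 reads, and there 41, 49 and 49 of the 49 stretches of that length that span the junction occur elsewhere too. Introns 7 and 8 also had 0 reads, although none of their spanning stretches is shared. The level of *Krt8* is therefore uncertain, and how the reads were divided between it and its copy was not tested. For the other 7 genes between 0 and 2.88% of the stretches were shared. Missing spliced reads were not confined to *Krt8*. Intron 4 of *Krt18* had 0 reads, with 5 of its 49 spanning stretches shared. Intron 3 of *Krt18* had 3 reads, all in WT 1120, with 0 shared. The exons of *Krt7* and *Krt8* overlap RNAs on the opposite strand, *Gm671* by 77 bases and *Gm36026* by 101 bases, and whether the counting used the strand is not stated.

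**Figure D5:**
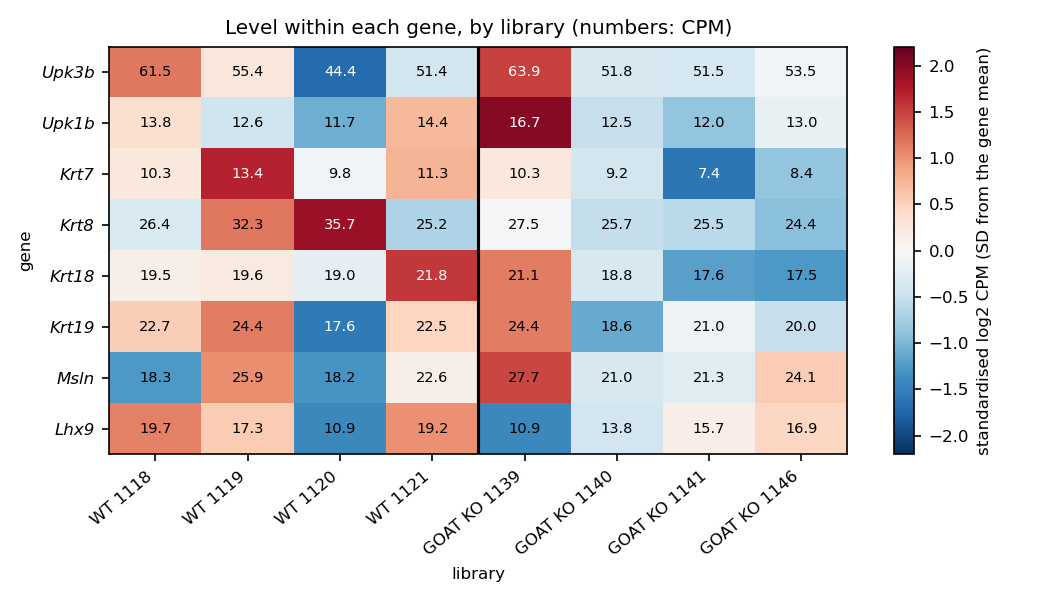
Level of each gene in each library, as standardised log2 CPM (colour, SD from the gene's mean over the 8 libraries) with the CPM written in each cell, WT to the left of the line. WT 1120 holds the lowest level of 5 genes and the highest *Krt8* (35.7 CPM), and GOAT KO 1140 lies below the mean for all 8.

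Between libraries of one group, 7 of the 8 genes, all but *Krt18*, had a coefficient of variation above the median of other genes at such levels. Their coefficient of variation within groups ran from 7.66% (*Krt18*) to 21.4% (*Lhx9*) with a median of 12.8%, and the median was 9.12% (quartiles 6.68% and 12.4%) over the 5629 other genes with a mean CPM between those of *Krt7* and *Upk3b*. Counting error alone would give 3.26% for *Upk3b*, the most abundant, to 7.62% for *Krt7*, the least. Summed over the 8 genes, the libraries held 192, 201, 167 and 188 CPM in WT and 202, 171, 172 and 178 CPM in GOAT KO. WT 1120 held the lowest sum, with 5 of the 8 genes at their lowest level, and GOAT KO 1139 the highest, with 3 genes at their highest. In WT 1118, WT 1119 and WT 1121 between 6 and 7 of the 8 genes lay above their own mean over the libraries, and in GOAT KO 1140, 1141 and 1146 between 0 and 2 did. The remaining libraries of each group went the other way, with 1 of 8 in WT 1120 and 6 of 8 in GOAT KO 1139.

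Most pairs of the 8 genes had a positive correlation across libraries, and none passed the test after adjustment. Of 28 pairs, 20 had a positive Pearson correlation of log2 CPM over the 8 libraries, with a median r of 0.30, of 0.28 without the 2 libraries farthest from the median and of 0.46 after the group means were taken out. The highest was *Upk3b* with *Krt19* (r = 0.79, permutation p = 0.0201, Spearman's rho = 0.71, permutation p = 0.0576), and r fell to 0.46 without the 2 farthest libraries. *Upk3b* with *Upk1b* gave r = 0.75 (permutation p = 0.0338, rho = 0.62, permutation p = 0.115). *Upk1b* with *Krt18* gave r = 0.72 (permutation p = 0.0429, rho = 0.62, permutation p = 0.115). Without the 2 farthest libraries of each pair these r fell to 0.30 and 0.26, and with the group means taken out they were 0.75 and 0.87. Both thus depended on the libraries kept. Without WT 1120 and GOAT KO 1139, r was 0.77 for *Upk1b* with *Krt18* and 0.30 for *Upk3b* with *Upk1b*. *Krt7* with *Krt18* gave rho = 0.86 (permutation p = 0.0107) and r = 0.70 (permutation p = 0.0518), and r was 0.94 without the 2 farthest. The filament partners *Krt8* and *Krt18* gave r = 0.10 (permutation p = 0.823) and rho = 0.33 (permutation p = 0.428), with r = 0.51 without the 2 farthest. The smallest permutation p adjusted over the 28 pairs was 0.362 for r and 0.3 for rho.

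The genes whose log2 CPM followed the mean of the 8 standardised levels most closely over the 8 libraries, among 16593 others, were *Gm16503* (Pearson r = 0.974), *Vtn*, which encodes vitronectin (0.957), *Sort1*, which encodes the sorting receptor sortilin (0.926), *Ncf1*, which encodes a subunit of the phagocyte oxidase (0.92), and *Pcnxl2* (0.92). These were picked as the highest of many values and carry no test. None of them was called, with unadjusted p between 0.173 and 0.721 by edgeR.

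Of 12 further genes of the surface epithelium and mesothelium, 0 were called in either direction with all 8 libraries, 0 passed an unadjusted p under 0.05 in edgeR, and their median log2 fold change was 0.03. *Wt1*, a transcription factor of mesothelium that granulosa cells also make, averaged 174 ± 40.2 CPM in WT against 151 ± 7.34 CPM in GOAT KO (log2 fold change -0.21, adjusted p = 0.983 by edgeR). *Aldh1a1*, a retinaldehyde dehydrogenase, stood at 761 ± 123 and 886 ± 146 CPM (0.22, adjusted p = 0.983 by edgeR). In WT 1120, 6 of the 12 were at their lowest (*Wt1*, *Gpm6a*, *Lrrn4*, *Muc16*, *Lgr5* and *Cdh1*), and in GOAT KO 1139, 6 were at their highest (*Bnc1*, *Lrrn4*, *Muc16*, *Rspo1*, *Nkain4* and *Cldn15*). In the 6 libraries without both, 4 had an unadjusted p under 0.05 in edgeR, as did 9.46% of all genes, and 0 were called. Their adjusted p ran from 0.339 to 0.515 by edgeR. *Wt1* (-0.33, unadjusted p of 0.00426) and *Lgr5*, a receptor that marks dividing surface cells (-0.32, unadjusted p of 0.0209), were lower there, and *Aldh1a1* (0.40, unadjusted p of 0.00267) and *Aldh1a2* (0.24, unadjusted p of 0.0388) were higher. *Lgr5* and *Aldh1a2* are named because of these values.

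Related families and partners gave no call either. Of the 4 other uroplakin genes 1 passed the filter, *Upk1a*, at 1.10 ± 0.311 and 1.39 ± 0.416 CPM (log2 fold change 0.33, adjusted p = 0.983 by edgeR), while *Upk3bl* stood at 0.556 ± 0.219 and 0.423 ± 0.126 CPM and was not tested. Of 47 other keratin genes 8 were tested and 0 called, and 12 had no count in any library. *Krt20*, a type I keratin of the gut and bladder lining, was the most abundant of these, at 16.1 ± 5.51 and 16.9 ± 4.85 CPM (0.07, adjusted p = 0.988 by edgeR), and it was lowest in WT 1120 (7.96 CPM) and GOAT KO 1139 (11.4 CPM), the libraries in which *Lhx9* was lowest. *Krt79* stood at 5.41 ± 1.00 and 5.97 ± 1.83 CPM. Of 9 tested genes of epithelial junctions and desmosomes, to which keratin filaments attach, 0 were called, with desmoplakin (*Dsp*) at 180 ± 38.9 and 173 ± 30.3 CPM and plakoglobin (*Jup*) at 96.4 ± 16.5 and 84.4 ± 12.6 CPM. Of 7 tested transcription factors of the gonadal ridge, where *Lhx9* acts, 0 were called, with *Gata4* at 269 ± 61.5 and 259 ± 55.0 CPM and *Nr5a1* at 227 ± 19.9 and 213 ± 30.5 CPM.

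Tissue beside the ovary can be taken with it at dissection, and other cell types of the organ were followed by their own markers. Of 5 tested genes of the oviduct 0 were called, and the list summed to 35.2 to 38.1 CPM in WT and 33.0 to 45.9 CPM in GOAT KO, with *Ehf* at 15.4 ± 2.66 and 15.7 ± 0.351 CPM and *Elf3* at 13.2 ± 2.31 and 12.2 ± 2.63 CPM. Of the 10 genes listed for the oviduct, 5 were highest in GOAT KO 1139 and the other 5 (*Ovgp1*, *Ehf*, *Elf3*, *Tmem212* and *Wfdc2*) in another library. Low in all libraries but highest in GOAT KO 1139, which was also the highest for *Upk3b*, *Upk1b* and *Msln*, were *Foxj1* (3.23 CPM, 0.307 to 1.59 elsewhere), *Pax8* (1.44, 0.165 to 0.733 elsewhere), *Dynlrb2* (1.2, 0.0619 to 0.329 elsewhere), *Cdhr3* (0.838, 0.0545 to 0.384 elsewhere) and *Sntn* (0.299, 0 to 0.122 elsewhere), named for these values. Of 7 tested fat cell genes 7 were called higher, against 0.958% of all genes in that direction. In 6 of them (*Adipoq*, *Cidec*, *Fabp4*, *Car3*, *Retn* and *Cfd*) GOAT KO 1139 held 83.9% to 91.0% of the CPM summed over the libraries, and 28.9% in *Plin1*, which encodes a coat protein of lipid droplets. In the 6 libraries only *Plin1* was called (log2 fold change 0.78, unadjusted p of 0.00717 by edgeR). With all 8 libraries, called higher among genes of the ovary's own cells were *Inhba* of granulosa cells (1 of 9, log2 fold change 0.95, unadjusted p of 0.0235 by edgeR) and *Sohlh1* of oocytes (1 of 10, 0.87, unadjusted p of 0.0198). Lower was *Lyz2* of leukocytes (1 of 6, -0.52, unadjusted p of 0.00188 by edgeR, against 0.717% of all genes in that direction). In the 6 libraries 4 of the 9 granulosa genes were called, all higher (*Fshr*, *Inhba*, *Inhbb* and *Cyp19a1*, named for these values), against 2.39% of all genes. An unadjusted p under 0.05 in edgeR was had by 6 of the 9, against 9.46% of all genes, among them *Amh*, which was lower (log2 fold change -0.21, unadjusted p of 0.0368), and the median log2 fold change was 0.42. *Sohlh1* and *Lyz2* were called there too, as the 1 gene of each list. The most abundant genes of these lists were *Inha* (adjusted p = 0.983 by edgeR) and *Nr5a2* (0.983) of granulosa cells, *Zp2* (0.983) and *Gdf9* (0.986) of oocytes, and *Csf1r* (0.986) beside *Lyz2* of leukocytes. Of striated muscle (4 tested, led by *Mylpf* and *Atp2a1*), theca and steroidogenic cells (7 tested, led by *Hsd3b1* and *Cyp11a1*) and blood (5 tested, led by *Hbb-bs* and *Hba-a1*) 0 genes were called. Over the 13 lists, the summed level differed between the groups with no adjusted permutation p under 0.464. The part of these other tissues in the levels of the 8 genes was not tested.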

How the data were processed

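Per the labels and the study's methods, total RNA of 8 whole ovaries was sequenced as short single reads, which the authors aligned to the mouse genome (mm10, GRCm38) with TopHat2 2.0.14 and summarised per known gene. The deposited count table holds whole numbers per gene symbol, without normalization. The deposited junction counts are reads across each splice junction, 1 set per library. StringTie 1.0.4 transcripts and the read summary were not used, and the counting tool and use of strand are not given in the sources used here.

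Counts were fitted over the whole table with edgeR 4.0.16 in R 4.3.3 (TMM scaling, filterByExpr with a minimum count of 10 and a minimum total of 15, quasi-likelihood test), comparing groups as labelled, with Benjamini-Hochberg adjustment over 16601 genes. The script was tested on simulated data. SE was derived from the fold change and the F statistic of the test, and intervals are at 95%. CPM are TMM-normalized. Single values were compared by two-sided exact permutation of libraries, which cannot go below p = 0.0286 with 4 against 4 or 0.1 with 3 against 3. Libraries are separate animals, and no pair of one group differed by less than sampling noise (chi-square per gene at least 3.96). No batch is labelled. Depth gives each of the 8 genes a counting error of 3.26% to 7.62% per library, and such figures cover counting error only. Lengths, positions and shared stretches of 50 bases come from GENCODE M21 on GRCm38, a later release than the authors used, and promoters from RefSeq. Likeness used log2(CPM + 0.01).

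The 8 genes and the 13 lists (further surface epithelium and mesothelium, other uroplakins, other keratins, epithelial junctions, gonadal ridge transcription factors, oviduct, fat, striated muscle, granulosa, theca, oocytes, leukocytes, blood) were chosen with earlier results of these data known. Of each list the genes called were named, or the 2 most abundant where fewer than 2 were called, and 5 genes by likeness. Alternatives were RLE scaling, DESeq2 1.42.0, no filter, a threshold of 0.3, each library left out, and the set without WT 1120 and GOAT KO 1139.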

Additional observations from a re-analysis of the deposited data

Results flagged for a closer look

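Within groups of 4 libraries, 4 of 58 sets of values held a library far from the others of its group, where chance gives about 1 in 20. *Upk3b* stood at 63.9 CPM in GOAT KO 1139, against 51.5 to 53.5 CPM in the other 3 libraries labelled GOAT KO. Spliced reads of *Upk1b* stood at 9.26 per 1000000 junction reads in GOAT KO 1141, against 15 to 16 in the other 3. The other uroplakin genes summed to 2.47 CPM in WT 1120, against 1.56 to 1.67 CPM in the other 3 WT libraries. Genes of fat cells summed to 1236.8 CPM in GOAT KO 1139, against 29.2 to 64.5 CPM in the other 3. Their causes were not tested.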

How the results depend on the processing

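No paired analysis was possible because the groups share no replicate numbers: each library carries the number of its own animal. Of 96 recomputed log2 fold changes of the 8 genes, 79 kept their direction and side of 0.05 for the unadjusted p (DESeq2's where it replaced edgeR), 9 turned direction, 3 rose above it and 5 fell below it. The count of these genes called stayed at 0 under RLE scaling, DESeq2, no filter and each library left out, and 1 was called, *Krt7*, with a threshold of 0.3. Genes called over the whole table came to 691 without the filter and 473 at 0.3, and to 231 to 437 with each library left out, the highest without WT 1120. Of the 8, 4 did not overlap between groups in the 6 libraries, and 0 to 2 with each library left out, with 2 without WT 1120, where 10.9% of all genes did not overlap, and 2 without GOAT KO 1139, where 6.55% did not.

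Directions turned as follows, on the log2 scale, and the cause was not tested. In the 6 libraries *Upk3b* stood at -0.10, *Upk1b* at -0.13 and *Msln* at -0.011, spliced reads of *Upk3b* at -0.09 and of *Krt18* at -0.066, the oviduct list at -0.091 and other keratins at -0.058. With 1 library left out the values ran from -0.028 to 0.13 for *Upk3b* (below 0 without WT 1120 and GOAT KO 1139), from -0.076 to 0.092 for *Upk1b* (below 0 without the same) and from -0.15 to 0.0023 for *Krt19* (above 0 without WT 1119 and GOAT KO 1140). Spliced reads ran from -0.026 to 0.22 for *Upk3b* (below 0 without WT 1120, WT 1121 or GOAT KO 1139) and from -0.099 to 0.087 for *Krt18* (below 0 without WT 1119, WT 1120, GOAT KO 1139 or GOAT KO 1141). List sums ran from -0.088 to 0.082 for the oviduct (below 0 without GOAT KO 1139), from -0.57 to 0.1 for blood (above 0 without WT 1119) and from -0.11 to 0.082 for other keratins (below 0 without WT 1120, WT 1121 or GOAT KO 1140). Depth limits *Lhx9* most among spliced reads, at 4 to 20 per library.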
